A study of Felis catus with 6 samples.

Results

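EGR1, FOS and DUSP2 were taken by gene name from the authors' deposited table of a feline kidney cell experiment, and these 3 genes are 3 of its 633 listed genes. The samples were 6 polyA RNA-seq libraries of PETCC2610, a cell line from cat kidney, all from cells given DOX, the agent used in this study to bring on senescence. In 3 libraries (DOX) the cells received DOX alone, and in the other 3 (DOX+PeptideE, called peptide E below) they also received a peptide obtained from a Bifidobacterium adolescentis fermentation. DOX is not spelled out in the labels, doses and times are not given, and no DOX-free cells are part of the comparison. The study used 1 cell line, and how the cultures of a group were kept apart is not stated, so p-values measure the spread between these libraries, which may be technical.

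Immediate early genes are switched on within minutes of a growth factor, stress or cytokine signal, without new protein synthesis, mainly through mitogen-activated protein (MAP) kinases. EGR1 encodes a zinc finger transcription factor, and FOS encodes a leucine zipper protein that pairs with JUN proteins to form the transcription factor AP-1. DUSP2 encodes a nuclear dual-specificity phosphatase that removes phosphate from MAP kinases and so limits the signal that induces such genes. In kidney tubules EGR1 and FOS are known for their rapid induction after injury.

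Values are the normalized expression values deposited by the authors, 1 per gene and library, given to 2 decimals without a stated unit. Every listed gene had been selected by the authors for a difference between these same libraries, so each member had to differ before it could be described here. Read depth could not be recovered from the values and is unknown. The table lists 293 genes as higher with the peptide and 340 as lower. Among the genes listed higher, peptide E replicate 1 held the lowest of the 3 peptide E values in 255 genes (87.0%) and replicate 3 the highest in 247 (84.3%), so the peptide E libraries stood apart from one another. In bulk RNA, fewer cells expressing a gene and less RNA per cell cannot be told apart. Of 21 tubular epithelium markers 5 were listed, among them the keratin genes KRT7 and KRT18 of simple epithelia, while PAX8, CDH16 and LRP2 were not listed and were not analysed here. The summed value of these 5 markers was 864 to 1100 in the DOX libraries and 580 to 783 with peptide E, and all 5 had lower means with peptide E. KRT7 and KRT18 made up at least 99.1% of that sum in every library, so it is in effect a value for these 2 keratin genes. The call by limma (a linear model fitted to all listed genes, described below) was passed by 3 of the 5. It was passed by 4 on the scale of the authors' fold changes or without a variance trend, and by 5 after centring each library on its median. With the replicate number as a block it was passed by 2, and KRT19 (limma adjusted p = 0.0491 in the main fit) was lost. HAVCR1 passed only after centring. Its groups overlapped (limma adjusted p = 0.386 in the main fit), and without peptide E replicate 1 its log2 change was 0.004, a reversed sign. Over all 633 listed genes, 163 (25.8%) were called lower. That count was 306 on the scale of the authors' fold changes, 143 without a trend, 322 after centring and 141 with the replicate block. Of the 5 markers, 1 passed without peptide E replicate 3 and none without DOX replicate 1, DOX replicate 3 or peptide E replicate 2. Over all listed genes, 95, 57, 19 and 22 were called lower in the same fits. In the last 3 fits the log2 changes of the genes whose call was lost were -0.63 to -0.38, against -0.68 to -0.46 with all libraries. The part of this difference in the results on EGR1, FOS and DUSP2 was not tested. None of the 11 fibroblast, 8 endothelial or 9 immune cell markers was listed.

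EGR1 and FOS rose with peptide E while DUSP2 fell. The plot of expression values by library shows that the groups were separated in each of the 3 genes. Among all listed genes the groups did not overlap in the higher direction in 43.4% and in the lower direction in 32.7%, shares that the authors' selection favours.

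**Figure D1:**
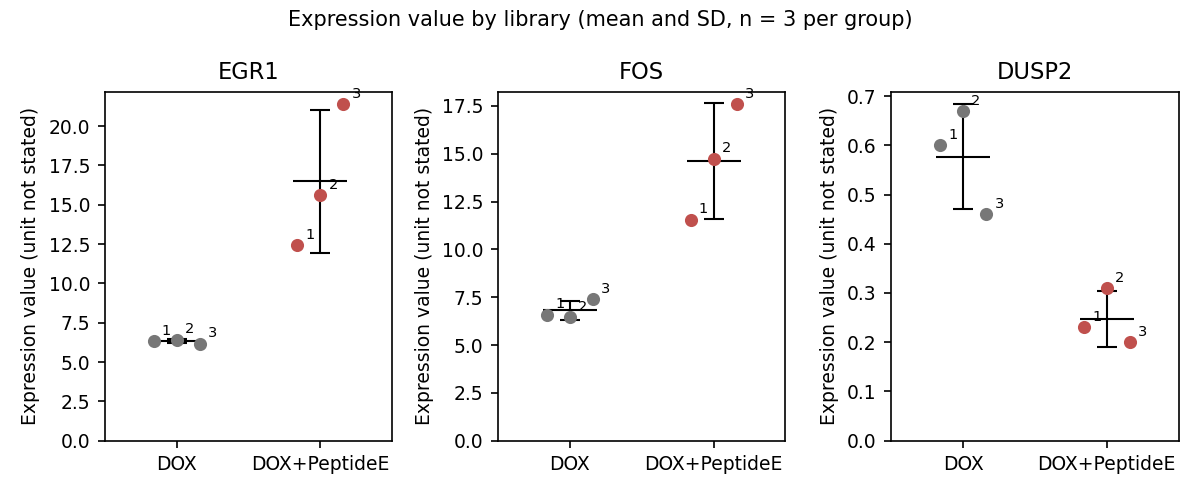
Expression value (vertical axis from 0, unit not stated) of EGR1, FOS and DUSP2 in each library, with numbers giving the replicate, horizontal bars the group mean and error bars the SD (n = 3 per group). The peptide E points of EGR1 (12.43 to 21.4) and FOS (11.55 to 17.6) lie above all DOX points, and those of DUSP2 (0.20 to 0.31) lie below them.

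EGR1 was at 6.34, 6.42 and 6.17 in DOX replicates 1, 2 and 3, and at 12.43, 15.63 and 21.4 in peptide E replicates 1, 2 and 3. The DOX libraries were nearly level, and the lowest peptide E library exceeded the highest DOX library by 6.01. The mean went from 6.31 ± 0.128 to 16.5 ± 4.55 (SD, n = 3 each), a ratio of 2.61. Spread was unequal, with a coefficient of variation of 2.02% in DOX and 27.6% with peptide E. Over the 293 genes listed higher, EGR1 and FOS included, the median coefficient was 10.6% in DOX and 27.6% with peptide E, and the larger one was with peptide E in 233.

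FOS was at 6.59, 6.46 and 7.39 in DOX replicates 1, 2 and 3, and at 11.55, 14.74 and 17.6 in peptide E replicates 1, 2 and 3. As for EGR1, replicate 1 was the lowest and replicate 3 the highest peptide E library, and the gap between the groups was 4.16. The mean went from 6.81 ± 0.504 to 14.6 ± 3.03 (SD, n = 3 each), a ratio of 2.15.

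DUSP2 was at 0.60, 0.67 and 0.46 in DOX replicates 1, 2 and 3, and at 0.23, 0.31 and 0.20 in peptide E replicates 1, 2 and 3. The order differed from that of the transcription factor genes, since peptide E replicate 2 held the highest value. The gap between the groups was 0.15, and the lowest DOX value was 1.48 times the highest peptide E value, while for FOS the lowest peptide E value was 1.56 times the highest DOX value and for EGR1 1.94 times. The mean went from 0.577 ± 0.107 to 0.247 ± 0.0569 (SD, n = 3 each), which is 2.34-fold lower. These are low values: DUSP2 stood at rank 536 of 633 by mean over the 6 libraries, against ranks 143 for EGR1 and 146 for FOS. The last printed decimal, 0.01, is 5.0% of the lowest DUSP2 value and 0.162% of the lowest EGR1 value.

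All 3 changes passed a limma test over the 633 listed genes, fitted to log2(value + 1) with Benjamini-Hochberg adjustment and a threshold of 0.05. Those 633 genes had already been selected for a difference between these same libraries. The adjustment over them therefore gives no false discovery rate, and the adjusted p-values and calls are descriptive. For EGR1 the log2 fold change was 1.23 ± 0.19 (standard error; limma adjusted p = 0.0106). For FOS it was 0.98 ± 0.17 (standard error; limma adjusted p = 0.0106), and for DUSP2 it was -0.34 ± 0.07 (standard error; limma adjusted p = 0.0124). The pseudocount of 1 exceeds every DUSP2 value and understates its change, which was -0.96 ± 0.25 (standard error) at a pseudocount of 0.1 (limma adjusted p = 0.0113). With peptide E replicate 1 left out, EGR1, FOS and DUSP2 had log2 fold changes of 1.40, 1.13 and -0.33, and without peptide E replicate 3 they were 1.03, 0.85 and -0.31, each still past the threshold. The exact permutation test of the 6 values, two-sided, gave p = 0.1 for each gene, the smallest that 3 against 3 libraries allow. In the same limma fit 44.1% of listed genes were called higher and 25.8% lower, so a call by itself does not set these genes apart from the rest of the table. Higher genes made up 63.1% of the calls as deposited, 38.9% after centring each library on its median and 42.2% on the scale of the authors' fold changes.

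The authors' deposited table gives its own statistics on another scale. It lists a log2 fold change of 1.09 for EGR1 (the authors' adjusted p = 2.75e-08) and of 0.85 for FOS (the authors' adjusted p = 0.000135). For DUSP2 the authors' deposited table lists -1.50, with an unadjusted p of 0.0311 and an adjusted p of exactly 1. The adjusted p of 1 is shared by 160 of the 633 genes in the authors' deposited table, and by 106 of the 177 genes whose mean lies within 4 times that of DUSP2, itself included. Taken from the deposited group means, the log2 ratio was larger than the value in the authors' deposited table by 0.29 for EGR1, 0.25 for FOS and 0.28 for DUSP2. The same offset had a median of 0.27 over listed genes with means of at least 5 in both groups. With the peptide E libraries lowered by that offset, EGR1 stood at 0.98, FOS at 0.74 and DUSP2 at -0.39, and each still passed (limma adjusted p of 0.0079, 0.0126 and 0.0072). Centring each library on its median log2 value over the listed genes gave 0.96 for EGR1, 0.71 for FOS and -0.61 for DUSP2. The centring followed the pseudocount of 1, so it moved genes of every level by the same 0.27. Lowering the values themselves moves low genes such as DUSP2 less, so the centred figure of a low gene is partly set by the method.

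**Figure D2:**
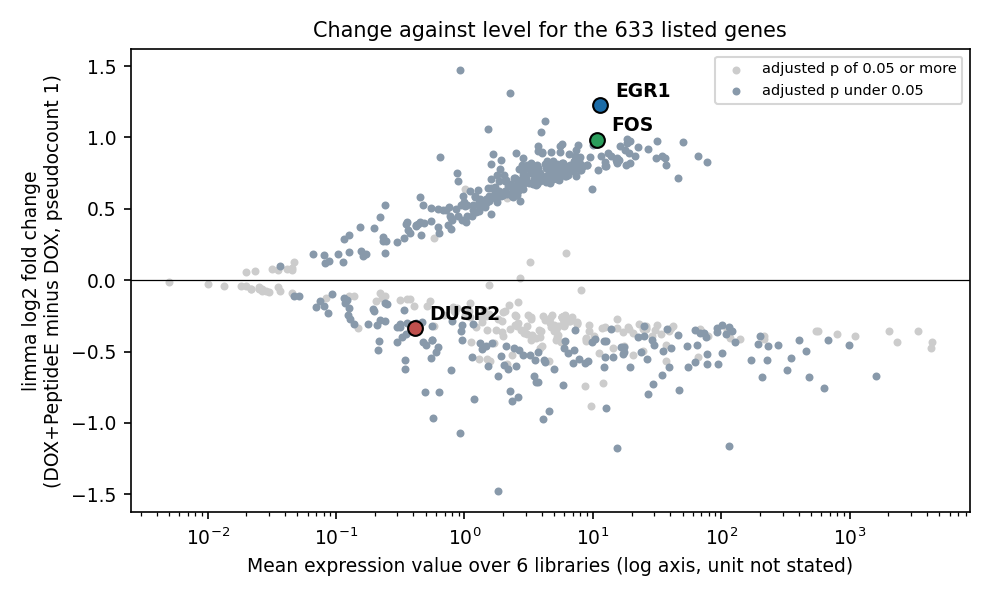
limma log2 fold change of peptide E against DOX (vertical axis, pseudocount 1) against the mean expression value over 6 libraries (log axis) for the 633 listed genes, with blue-grey points for adjusted p under 0.05 and light grey for the rest. EGR1 (1.23) lies at the upper edge of the genes at its level, FOS (0.98) just below it, and DUSP2 (-0.34) lies among many low genes with similar changes.

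Against listed genes of like level, the 3 members stood at different places. Within 4 times the mean of EGR1 lay 279 other listed genes, of which 141 were called higher and 51 lower. None of the 279, of which 143 were listed higher, had a larger log2 fold change than EGR1, as the plot of change against level shows. At a pseudocount of 0.1 the uncharacterized locus LOC102900615 exceeded EGR1, and in the other 12 alternative settings none did. Within 4 times the mean of FOS lay 286 other listed genes, 149 of them listed higher. FOS was exceeded by 4 of the 286, namely EGR1, KCTD12, COL12A1 and LOC102900615, and by 2 to 16 in the alternative settings. Within 4 times the mean of DUSP2 lay 176 other listed genes, 92 of them listed lower. DUSP2 was exceeded in its own direction by 33 of the 176. The alternative settings gave 24 (without DOX replicate 3) to 52 (without DOX replicate 2). The median log2 fold change of the genes that were lower in that window was -0.30.

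Each peptide E library can be set against the median listed gene of the same direction. On the log2(value + 0.1) scale, EGR1 deviated from its own DOX mean by 0.97, 1.30 and 1.75 in peptide E replicates 1, 2 and 3. The median over the 293 genes listed higher was 0.54, 0.99 and 1.26 in the same libraries. EGR1 thus lay above that median by 0.42, 0.30 and 0.48, and did so in 3 of 3 libraries. FOS deviated by 0.76, 1.10 and 1.36, which is above the median by 0.21, 0.11 and 0.10. FOS therefore also lay above the median listed higher gene in every peptide E library, by less than EGR1 did. DUSP2 deviated by -1.02, -0.71 and -1.16, against a median over the 340 genes listed lower of -0.46, -0.50 and -0.59. The low starting level of DUSP2 means that a few hundredths of a unit move these figures. A median over genes selected for their change is a description and no test.

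**Figure D3:**
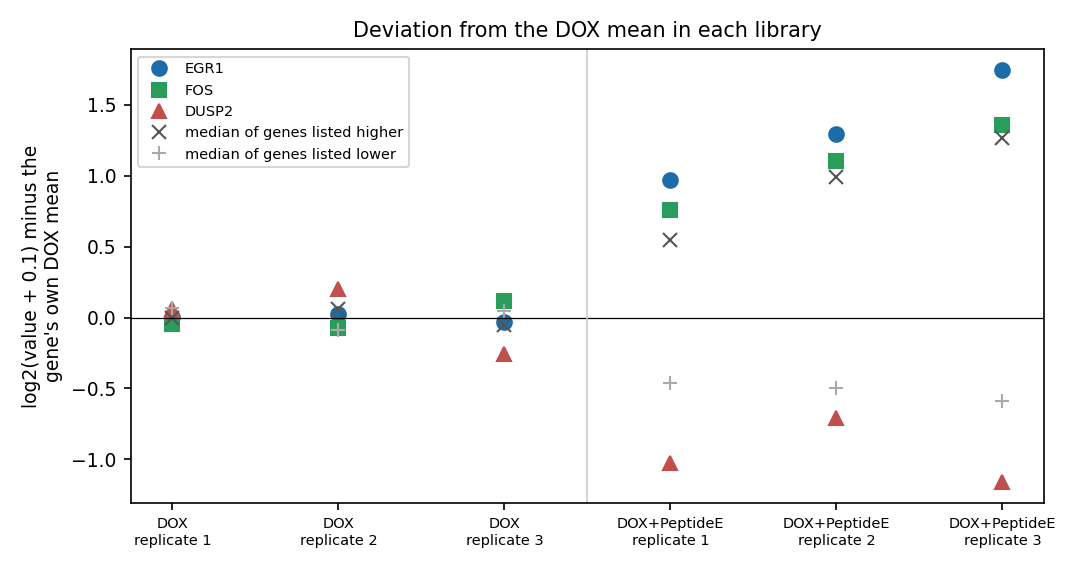
Deviation of log2(value + 0.1) from each gene's own DOX mean (vertical axis) in the 6 libraries (horizontal axis), with circles for EGR1, squares for FOS, triangles for DUSP2, and crosses and plus signs for the medians of the genes listed higher and lower. EGR1 reaches 0.97, 1.30 and 1.75 in the peptide E libraries and the median of genes listed higher 0.54, 0.99 and 1.26, while DUSP2 lies between -1.16 and -0.71.

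The transcription factor genes were next compared with the phosphatase gene within each library. A scaling of a library cancels in the plain ratio of values, but not fully once a pseudocount is added to values as low as those of DUSP2, and rescaled ratios were not computed. Since it is not stated whether values are per length, only the difference of a ratio between groups is read here, not the ratio itself. The EGR1 value was 10.6, 9.58 and 13.4 times the DUSP2 value in DOX replicates 1, 2 and 3, and 54.0, 50.4 and 107 times in peptide E replicates 1, 2 and 3. Peptide E replicate 3, with the highest EGR1 and the lowest DUSP2, stood above the other two. On the log2 scale with a pseudocount of 0.1, the ratio went from 3.26 ± 0.21 to 5.56 ± 0.52 (SD, n = 3 each), a difference of 2.30 and so a 4.93-fold higher ratio.

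FOS was 11.0, 9.64 and 16.1 times DUSP2 in DOX replicates 1, 2 and 3, and 50.2, 47.5 and 88.0 times in peptide E replicates 1, 2 and 3. The log2 ratio went from 3.36 ± 0.34 to 5.40 ± 0.42 (SD, n = 3 each), a difference of 2.04 and a 4.11-fold higher ratio. In both ratios, the groups did not overlap, which follows from the separation of the groups in each single gene and is no further result. The ratio of EGR1 to FOS moved far less. It was 0.962, 0.994 and 0.835 in the DOX libraries and 1.08, 1.06 and 1.22 with peptide E, a log2 difference of 0.26. The groups were separated by a gap of 0.09 on the log2 scale in this ratio as well. Each of the 3 ratios gave p = 0.1 in a two-sided exact permutation test (Benjamini-Hochberg adjusted p = 0.1 over 3 ratios). That is the smallest possible, so none could pass a threshold of 0.05. For the ratios to DUSP2 it was fixed in advance by the separated values of the single genes. The sizes of the ratios to DUSP2 depend on the pseudocount. For EGR1 to DUSP2 the log2 difference was 1.56 at a pseudocount of 1 and 2.55 at 0.01, and for FOS to DUSP2 it was 1.32 and 2.28.

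**Figure D4:**
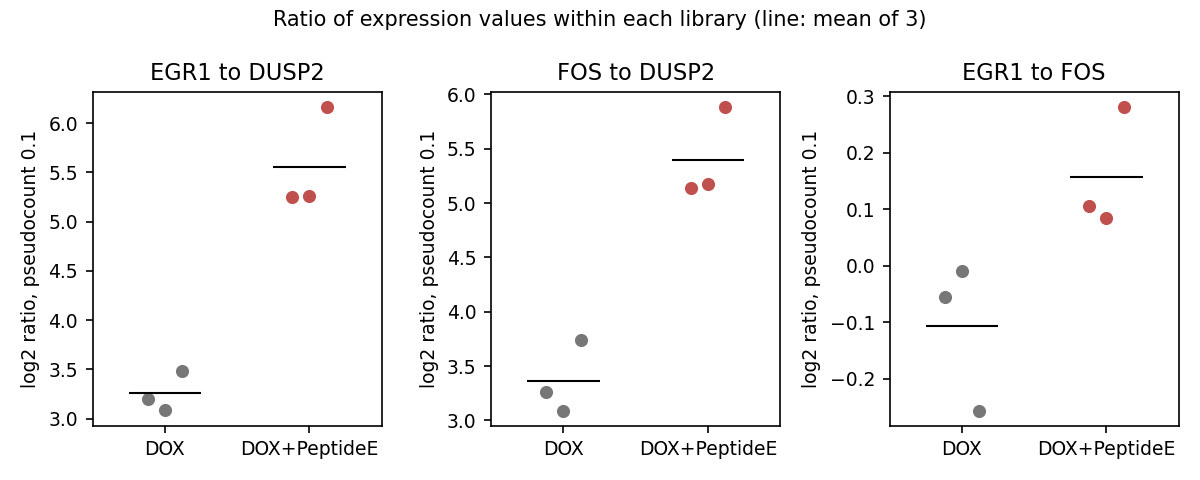
log2 ratio of expression values within each library (vertical axes, pseudocount 0.1, axes not starting at 0 and differing in range) for EGR1 to DUSP2, FOS to DUSP2 and EGR1 to FOS, with points for libraries and lines for group means. The ratios to DUSP2 differ between the groups by 2.30 and 2.04, and EGR1 to FOS by 0.26.

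Few other genes of the pathway were in the table. The 6 lists of the pathway held 176 symbols besides the 3 members, of which 8 were listed: 5 rose, none fell by the limma threshold and 3 were lower without passing it, against 44.1% called higher and 25.8% called lower over all listed genes. None of the 5 passed without DOX replicate 1, DOX replicate 3 or peptide E replicate 2. Over all listed genes, the number called higher went from 279 to 90, 20 and 33 in the same fits. The median log2 fold change of the 8 was 0.72, against -0.11 over all 633 listed genes. Since every listed gene was selected for a change, such a median mostly reflects which direction holds the majority. That was 5 higher of 8, against 293 higher of 633, and is no separate result. None of 45 other immediate early genes, such as MYC, IER2 and NR4A1, was listed, nor was any other EGR gene. Genes that are not listed were not analysed here, and nothing is known of their values.

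Among AP-1 subunits, FOS and BATF3 were the listed members of 18 symbols. BATF3, a basic leucine zipper factor that pairs with JUN proteins, was at 5.38, 3.35 and 5.33 in DOX replicates 1, 2 and 3 and at 3.76, 3.21 and 2.27 in peptide E replicates 1, 2 and 3. The groups overlapped, and the log2 fold change of -0.47 did not pass (limma adjusted p = 0.0796). It did pass in 4 of the alternative settings, including both rescalings.

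In the list of dual-specificity phosphatases and other ERK feedback genes, 3 of 28 symbols were listed and they did not share a direction. DUSP9, another MAP kinase phosphatase, measured 6.97, 4.90 and 6.83 with DOX alone, against 5.47, 4.22 and 3.89 in the peptide E libraries. Its groups overlapped and its log2 fold change of -0.39 did not pass (limma adjusted p = 0.0919), though it passed after both rescalings. SPRED2, an inhibitor of RAS to ERK signalling, rose from a mean of 4.18 ± 0.634 to one of 8.12 ± 2.42 (SD, n = 3 each), and passed at a log2 change of 0.79 (limma adjusted p = 0.0157). The SPRED2 groups did not overlap, with 3.64 to 4.88 in DOX and 6.23 to 10.85 with peptide E. It no longer passed when DOX replicate 1 (limma adjusted p = 0.0562), DOX replicate 3 (0.0646) or peptide E replicate 2 (0.0579) was left out, at log2 changes of 0.77, 0.71 and 0.84. In the kinase cascade, MAP2K6, which activates p38, was the listed gene of 54 symbols, at 0.257 in DOX and 0.183 with peptide E with groups that overlapped (limma log2 fold change -0.09, adjusted p = 0.201). It passed after median centring, at -0.36 (limma adjusted p = 0.0149), which moves values this low by as much as high ones. On the scale of the authors' fold changes MAP2K6 did not pass, at -0.13 (limma adjusted p = 0.0623).

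The list of factors that act at immediate early promoters had 4 listed genes of 29 symbols, and all 4 rose, in a table where 44.1% were called higher, with limma log2 fold changes of 0.70 to 0.81 and adjusted p of 0.0189 to 0.0262. CREBBP, a histone acetyltransferase gene, went from 2.59 ± 0.123 to 5.19 ± 1.62 (SD, n = 3 each), and its close relative EP300 from 2.33 ± 0.161 to 5.07 ± 2.08 (SD, n = 3 each). MRTFB, a coactivator of serum response factor, went from 2.38 to 4.83, and MED13L, of the Mediator kinase module, from 1.34 to 2.91. As with EGR1 and FOS, each of the 4 had its lowest peptide E value in replicate 1 and its highest in replicate 3, an order that most genes listed higher share. Of the 4, 0 passed without DOX replicate 1, DOX replicate 3 or peptide E replicate 2, at log2 fold changes of 0.64 to 0.79. Over the whole table, genes called higher went from 279 to 90, 20 and 33 in the same fits. Without DOX replicate 2, 2 passed, and without peptide E replicate 3, 1 passed.

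The listed genes with the most similar pattern were found by the root mean square difference of log2 deviations over the 6 libraries, among genes with a symbol within 4 times a member's mean. For EGR1, out of 235 candidates, the nearest was KCTD12, an auxiliary subunit gene of GABA-B receptors, at a difference of 0.11. KCTD12 measured 1.96, 2.53 and 2.17 with DOX alone, against 4.37, 5.62 and 7.07 in the peptide E libraries. BCOR, a transcriptional corepressor gene, the glutamate receptor gene GRIN3A, the metalloreductase gene STEAP4 and the T-box factor gene TBX3 followed, at up to 0.20. FOS lay at 0.21 from EGR1, with 9 candidates closer.

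For FOS, the nearest of 241 candidates were BBS1, a gene of the ciliary BBSome, TPP1, a lysosomal peptidase gene, IGSF3, TEP1 and TICRR, a regulator of replication origins, at 0.08 to 0.11. TPP1, at 8.65, 8.42 and 9.29 in the DOX libraries and 13.61, 17.38 and 21.24 with peptide E, followed FOS in both groups. EGR1 was farther from FOS than 96 of these candidates and so was not among its closest. The median candidate lay at 0.24 from FOS, and the median candidate of EGR1 at 0.37 from EGR1.

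For DUSP2, the nearest of 119 candidates were VSIG4, a complement receptor gene, FBP1, a gluconeogenic enzyme gene, PTPRR, IL1R2, a decoy receptor gene for interleukin-1, and SPNS3, at 0.17 to 0.25. PTPRR, a tyrosine phosphatase gene whose product acts on MAP kinases, measured 0.74, 0.59 and 0.51 with DOX alone, against 0.32, 0.31 and 0.31 after the peptide was added. VSIG4 measured 2.12, 2.28 and 1.72 with DOX alone, against 1.21, 1.0 and 0.81 in the peptide E libraries. These neighbours were picked for their likeness to genes that changed, so their own limma calls are no separate result. All 15 were called with all libraries, in a table where 44.1% were called higher and 25.8% lower. Of the 15, 14 lost the call without DOX replicate 3 and 12 without peptide E replicate 2. Their limma adjusted p were then 0.0505 to 0.0592 and 0.0539 to 0.0624. Over all listed genes, calls went from 279 higher and 163 lower to 20 and 19, and to 33 and 22, in the same fits. The losses are therefore not particular to these neighbours. Leaving out DOX replicate 1 or peptide E replicate 3 cost 1 call each.

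**Figure D5:**
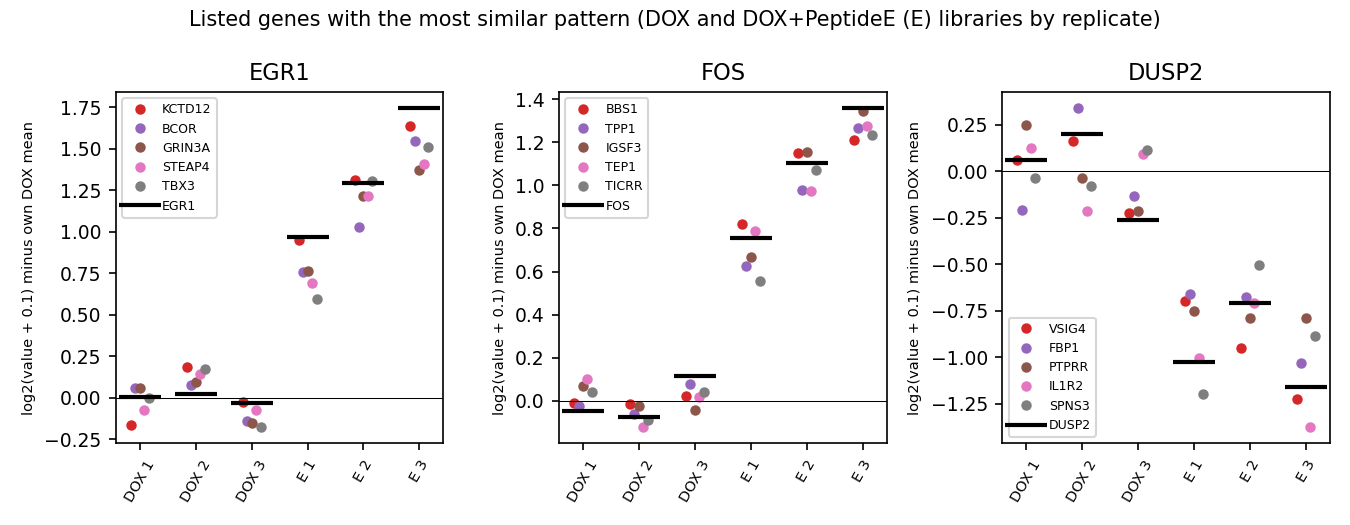
Deviation of log2(value + 0.1) from each gene's own DOX mean (vertical axes) by library (DOX and peptide E, E, replicates 1 to 3) for EGR1, FOS and DUSP2 (black bars) and the 5 listed genes closest to each (coloured points). The neighbours of FOS lie within a root mean square difference of 0.11, those of EGR1 within 0.20 and those of DUSP2 within 0.25.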

How the data were processed

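The members and gene lists were chosen with earlier results of these data known. PolyA RNA was sequenced in pairs, per the labels' protocols, and FastQC 0.11.9 and fastp 0.19.5 are named in the submitters' processing notes. The sources used here do not state the aligner, genome build, annotation or use of strand, so no coordinates are printed. The deposited table holds, for each gene, a normalized expression signal in each library (2 decimals, no counts). It also holds the authors' fold change (ratio), its log2 value, and unadjusted and adjusted p-values, per the file headers. Libraries were assigned by title. No other sample's column was present.

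Values were transformed as log2(value + 1) and tested with limma 3.58.1 in R 4.3.3 over all 633 genes, with a variance trend and no filter, since a minimum mean of 1 in either group (499 genes) drops DUSP2. The procedure was tested on simulated data. Exact permutation tests used scipy 1.17.1. Ratios used a pseudocount of 0.1. Named were the members, listed genes of the fixed pathway and marker lists, and the 5 nearest patterns per member. The pathway counts omit a gene that is not reported here. COL12A1 and LOC102900615 were named after their values were seen. Alternatives covered pseudocounts, the filter, trend, scaling, the replicate block and leaving out each library.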

Additional observations from a re-analysis of the deposited data

How the results depend on the processing

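EGR1, FOS and DUSP2 kept their sign and their limma call in every alternative that tested them, 13 for EGR1 and FOS and 12 for DUSP2, which the filter drops. These calls too were adjusted only over genes selected for a difference, so keeping them is descriptive. With separated groups, leaving out a library could not change a sign. Leave-one-out log2 fold changes were 1.03 to 1.40 for EGR1, 0.85 to 1.13 for FOS and -0.39 to -0.29 for DUSP2, with limma adjusted p up to 0.0444, 0.0444 and 0.0473. At a pseudocount of 5 they were 0.90, 0.72 and -0.09. With the replicate number as a block the limma adjusted p were 0.0068, 0.0105 and 0.0122. Deviations of same-numbered libraries from their group means correlated at 0.309, -0.0295 and -0.0904 over 633 genes. DOX replicate 2 correlated best with peptide E replicate 3 (0.333). With 3 libraries per group the deviations are tied to one another. The correlations therefore cannot decide whether the labels' numbers pair the libraries. With the replicate block 276 genes were called higher and 141 lower, against 279 and 163. Sign flips within pairs gave an exact p of 0.25 for each ratio, the smallest for 3 pairs, at unchanged log2 differences of 2.30, 2.04 and 0.26. The ratios kept their sign when a library was left out, at 2.0 to 2.46, 1.80 to 2.23 and 0.19 to 0.31, which the separated groups made certain.

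Counts over the table depended more on single libraries. Leaving out 1 library gave 20 to 279 genes called higher and 19 to 195 called lower. There were 20 higher and 19 lower without DOX replicate 3, 33 and 22 without peptide E replicate 2, and 90 and 57 without DOX replicate 1, and 95 were lower without peptide E replicate 3. Lower genes numbered 322 after median centring and 306 on the scale of the authors' fold changes. The cause was not tested. Median centring moved log2 fold changes by -0.27. Counts over the promoter factor and tubular marker lists under these settings were added after seeing the data. Depth is unknown, so counting error in DUSP2 could not be bounded.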
